A study of Mus musculus with 12 samples.

Results

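The genes described here encode the proteins of the mitochondrial ribosome. They were taken from a raw count table of 25189 genes by name: every gene called Mrpl or Mrps followed by a number and at most 1 letter, without pseudogenes. The rule found 77 genes, 48 named for the large subunit (Mrpl) and 29 for the small subunit (Mrps), and 76 of them had enough reads to be tested. The RNA was that of regulatory T (Treg) cells, which restrain other immune cells, sorted from spleens of female mice aged 4 weeks. There were 12 libraries, 4 for each of 3 genotypes. WT cells expressed the Foxp3RFP allele, in which a red reporter marks a working Foxp3 gene. Foxp3-deficient cells expressed the Foxp3∆EGFPiCre allele, which makes Cre recombinase in place of a working Foxp3 protein, and double-deficient cells carried the same allele together with Rictor∆/∆, the loss of Rictor, the defining subunit of mTOR complex 2. The labels describe heterozygous females (Foxp3∆EGFPiCre/RFP for one strain and Foxp3∆EGFPiCre/+ for the other) that all carried the R26YFP Cre reporter. Cells were sorted as CD4+RFP+ or CD4+YFP+, so reporter and genotype cannot be told apart, and Cre was made only in cells that had switched on the Foxp3 locus. Which mouse gave which library was not stated, so p-values here measure no more than the spread among these samples, which may be technical.

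Mitochondrial ribosomes translate the few proteins that the mitochondrial genome encodes, all of them subunits of the oxidative phosphorylation complexes. Their RNA comes from mitochondrial DNA, whereas every one of their proteins is encoded in the nucleus, made in the cytosol and imported. The large subunit forms peptide bonds and the small subunit reads the messenger RNA. Some of the proteins have bacterial counterparts and others are found only in mitochondria.

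Reads assigned to genes numbered 15769737 to 26114044 per library, and of these 29810 to 63046 fell on the 77 genes, 0.164% to 0.286% of the total. Foxp3 averaged 633 ± 75.8 CPM (counts scaled to library size) for WT, 118 ± 22.8 for Foxp3-deficient and 102 ± 13.7 for double-deficient cells (mean ± SD, n = 4, library sizes scaled by TMM). Rictor averaged 148 ± 14.4 CPM for WT, 189 ± 31.2 for Foxp3-deficient and 141 ± 12.6 for double-deficient cells. A count over the whole Rictor gene includes exons outside a deleted part and is no check of that label. The T cell genes Cd3e, Cd4 and Trac were at 757 CPM or more in every group's mean, while the B cell gene Ms4a1 was at 0.386 CPM or less. The summed B cell marker list, mostly Ighm, was 1415 ± 99.8 CPM for WT, 755 ± 70.7 for Foxp3-deficient and 875 ± 73.9 for double-deficient libraries, and its part in the results was not tested.

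One library, Foxp3-deficient 1, stood apart for these genes and enters every comparison with its group. The median member lay 0.73 below its own mean over the 12 libraries there on the log2 scale (-0.73), and between -0.18 and 0.32 in the other 11 libraries. For 67 of the 76 tested members this library was the lowest of all 12. It was also low in short genes relative to long genes, with the members left out. The median deviation of the shortest genes minus that of the longest (outer of 5 classes by exonic length) was -0.63 (log2) there. This difference was -0.20 to 0.09 in the rest of its group, -0.10 to -0.01 in WT and 0.12 to 0.40 in double-deficient libraries. Levels of short genes relative to long ones and levels of the members thus moved together in these libraries, and the tests by length further on bear on that. The main count of called members in double-deficient against Foxp3-deficient cells is given with and without it. Most other counts that involve its group include it. Those of the other gene lists, the length classes and the members without overlap were not repeated without it.

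Levels among the members were compared per length of exon, as RPKM (CPM per kilobase of exon). That length is the union of exons over all annotated transcripts. It can far exceed the main (principal) transcript, as for Mrpl33 (7326 and 478 bases), and levels by other lengths were not ranked. The median over the 76 tested members was 11.6 RPKM, with quartiles of 7.02 and 20.9 RPKM. The median was 13.5 RPKM for the 47 tested large subunit genes and 9.99 RPKM for the 29 small subunit genes. Mrpl10, the protein that anchors the stalk of the large subunit, was highest by the mean over all libraries, with 41.2 ± 3.24 RPKM for WT, 40.9 ± 2.11 for Foxp3-deficient and 41.05 ± 1.37 for double-deficient cells. Mrpl18 (32.8 ± 1.17, 34.8 ± 11.2 and 46.6 ± 2.83 RPKM) and Mrpl36 (31.3 ± 1.35, 28.3 ± 6.88 and 38.3 ± 0.682 RPKM) followed by that mean in the large subunit, with Mrpl28 (33.5 ± 1.38, 31.1 ± 6.70 and 33.3 ± 1.90 RPKM) level with Mrpl36. In WT these last 3 lay close together and below Mrpl10, whereas in double-deficient cells Mrpl18 was above Mrpl10. In the small subunit Mrps23 (37.7 ± 1.68 RPKM in WT), Mrps15 (24.5 ± 2.18) and Mrps24 (23.0 ± 2.90) had the highest means over all libraries. In WT alone Mrps7 (24.1 ± 1.32) was above Mrps24, and these and Mrps15 lay within each other's spread. At the low end, Mrpl53 had 52 reads over all 12 libraries and was not tested. Its annotated exons overlap those of another gene, Gm42688, over 88.0% of their length. Mrpl23 averaged 0.179 RPKM.

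**Figure D1:**
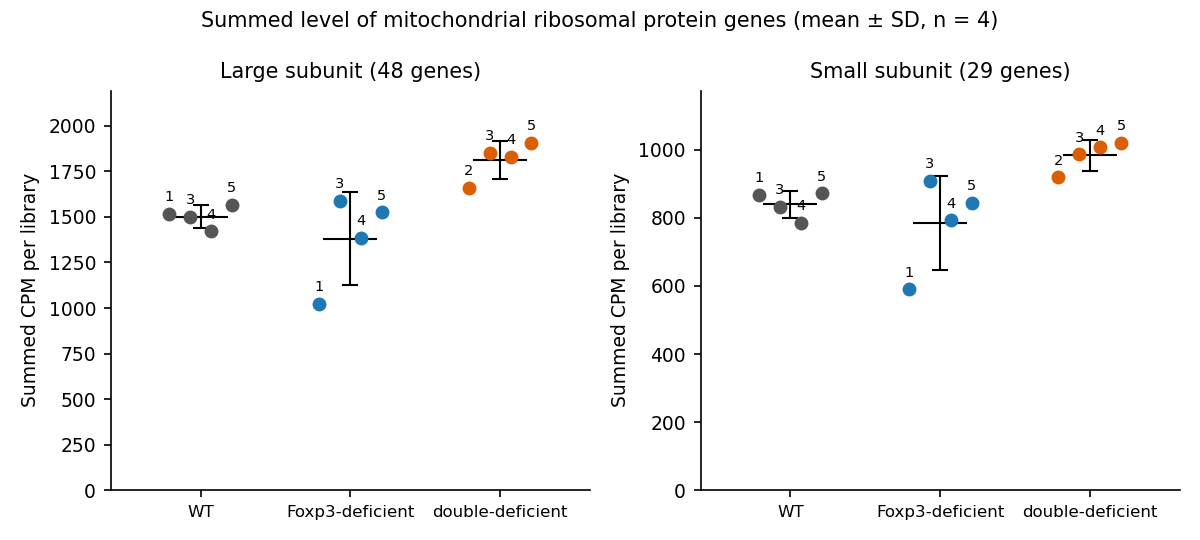
Summed CPM of the 48 large and 29 small subunit genes (y axes, from 0) in each library (points, labelled with the replicate number), with the mean and SD of each group of 4. All 4 double-deficient libraries lie above all others in both panels, and Foxp3-deficient 1 lies lowest.

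Summed over the 77 genes, WT libraries ranged from 2207 to 2441 CPM. The Foxp3-deficient libraries gave 1614 (replicate 1), 2179 (replicate 4), 2371 (replicate 5) and 2499 CPM (replicate 3), and the double-deficient libraries 2580 to 2929 CPM. Thus all double-deficient libraries were above all others, and Foxp3-deficient libraries other than replicate 1 spanned the WT range. Large subunit genes summed to 1.79 ± 0.0279 times the small subunit genes for WT, 1.76 ± 0.0326 times for Foxp3-deficient and 1.84 ± 0.0368 times for double-deficient cells. In bulk RNA, fewer cells that express a gene and less RNA per cell cannot be told apart.

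The comparison of double-deficient with Foxp3-deficient cells asks what the loss of Rictor adds to the loss of Foxp3. Where these groups came from different strains of those named above, strain and loss of Rictor cannot be told apart. Of the 76 tested genes, 33 were higher in double-deficient cells and none was lower (edgeR quasi-likelihood test, Benjamini-Hochberg adjusted p under 0.05 over all genes), by 1.25-fold to 1.86-fold. Across all 13196 tested genes 27.2% were called, 13.9% higher and 13.3% lower, against 43.4% and 0% of the members. The median log2 fold change of the members was 0.43, compared with -0.02 for all genes, and 74 of 76 were positive. At an unadjusted p under 0.05, 52 members were higher and again 0 lower, and the share of all genes at that threshold was not counted. DESeq2 called 42 members higher (55.3%) and 0 lower, against 16.3% and 15% of all genes. In the large subunit 24 of 47 genes rose (median 0.44) and in the small subunit 9 of 29 (median 0.38). No test of the difference between the subunits was made.

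Leaving out single libraries moved this count between 10 and 50. It was 22 without Foxp3-deficient 1 (10.4% of all genes then called higher) and the median fell to 0.28. It was 50 without Foxp3-deficient 3 and 18 without Foxp3-deficient 4 (65.8% and 23.7% of the members, against 16.9% and 9.21% of all genes). Without double-deficient 3, 4 and 5 it was 20, 19 and 10 (26.3%, 25% and 13.2%, against 9.74%, 10.6% and 8.24%). The direction held in all 8 of these fits. The 10 members called in every one were Mrpl9, Mrpl12, Mrpl30, Mrpl35, Mrpl40, Mrpl41, Mrpl46, Mrpl50, Mrps14 and Mrps24. A fit of these groups alone called 17, when 9.6% of all genes were called higher.

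**Figure D2:**
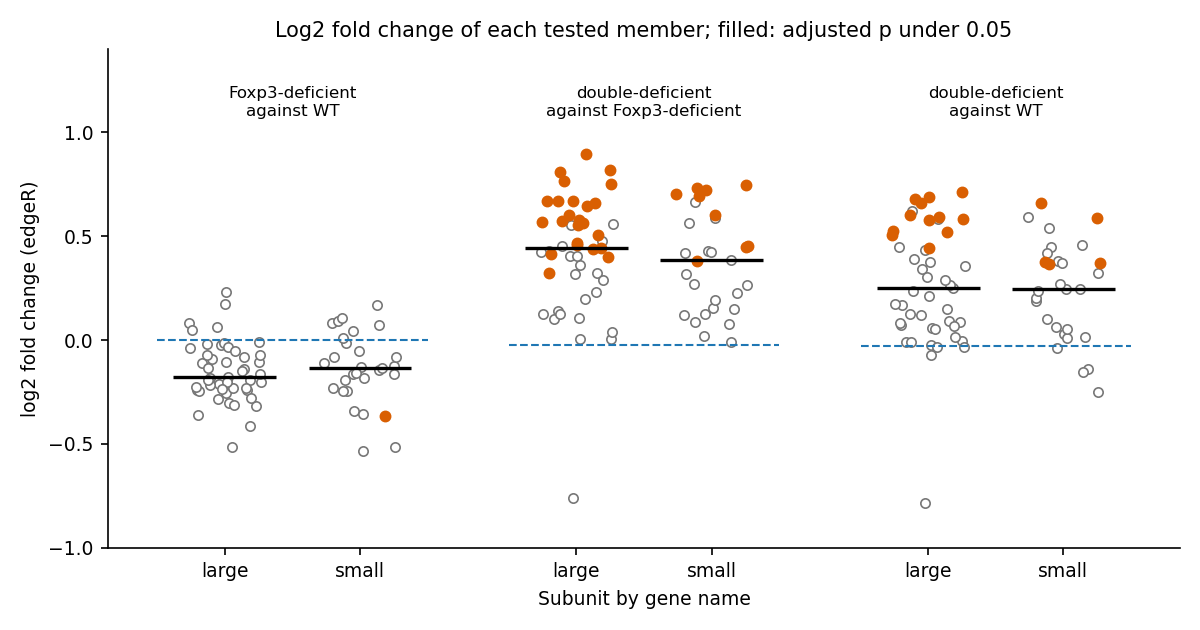
Log2 fold change (y axis) of the 47 tested large and 29 tested small subunit genes in the 3 comparisons, with 1 point per gene, filled where the adjusted p was under 0.05. Solid bars mark the median of each set and dashed lines that of all tested genes; in double-deficient against Foxp3-deficient cells 33 points are filled, all above 0.

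Mrpl42, a protein of the large subunit found only in mitochondria (chr10:95480805-95501940, minus strand; positions here are in GRCm38), had the largest change. Its Foxp3-deficient libraries gave 10.2, 29.1, 18 and 25.3 CPM (replicates 1, 3, 4 and 5) and its double-deficient libraries 30.0, 36.5, 38.5 and 48.6 (replicates 2, 3, 4 and 5). The groups did not overlap, although Foxp3-deficient 3 and double-deficient 2 were close. The log2 fold change was 0.89 (SE 0.25, adjusted p = 0.0184).

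Mrpl12, the stalk protein that also binds the mitochondrial RNA polymerase (chr11:120484613-120489065, plus strand), gave 34.0, 28.9, 28.3 and 37.6 CPM in WT. It gave 17.1, 37.1, 28 and 37.4 CPM in Foxp3-deficient libraries and 43.0, 55.1, 55.5 and 57.4 CPM in double-deficient ones. Every double-deficient library was above every other library, while WT and Foxp3-deficient libraries overlapped. The log2 fold change against Foxp3-deficient was 0.82 (SE 0.20, adjusted p = 0.00842).

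Mrpl50 (chr4:49512596-49521093, minus strand), another mitochondria-specific large subunit protein, had the smallest adjusted p of the set. Its Foxp3-deficient libraries gave 25.9, 28, 32.1 and 39.1 CPM and its double-deficient libraries 47.7, 49.1, 48.2 and 50.8. The 4 double-deficient libraries lay close together and all above the others, with a log2 fold change of 0.65 (SE 0.13, adjusted p = 0.00258).

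Mrps14 (chr1:160195215-160202170, plus strand), a small subunit protein with a bacterial counterpart, led the small subunit. It gave 23.8, 55.4, 42.3 and 52.1 CPM in Foxp3-deficient libraries and 56.5, 73.4, 76.4 and 85.2 CPM in double-deficient ones. Double-deficient 2 was only just above Foxp3-deficient 3, so the groups touched without overlapping. The log2 fold change was 0.75 (SE 0.20, adjusted p = 0.0154).

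Mrps24 (chr11:5703983-5715680, minus strand), which also has a bacterial counterpart, gave 15.8, 41.1, 27.8 and 33.1 CPM in Foxp3-deficient libraries and 44.1, 50.7, 50.1 and 50.9 CPM in double-deficient ones. The groups did not overlap, and the log2 fold change was 0.73 (SE 0.20, adjusted p = 0.0170). Mrpl32, Mrpl20, Mrpl35 and Mrps16, all with bacterial counterparts, had log2 fold changes of 0.81, 0.77, 0.75 and 0.72. Of these Mrpl32 and Mrpl20 overlapped between the groups and Mrpl35 and Mrps16 did not. Over all 76 members 32 did not overlap between the groups, all higher in double-deficient cells (42.1% of the members, against 13.7% of all tested genes higher without overlap).

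**Figure D3:**
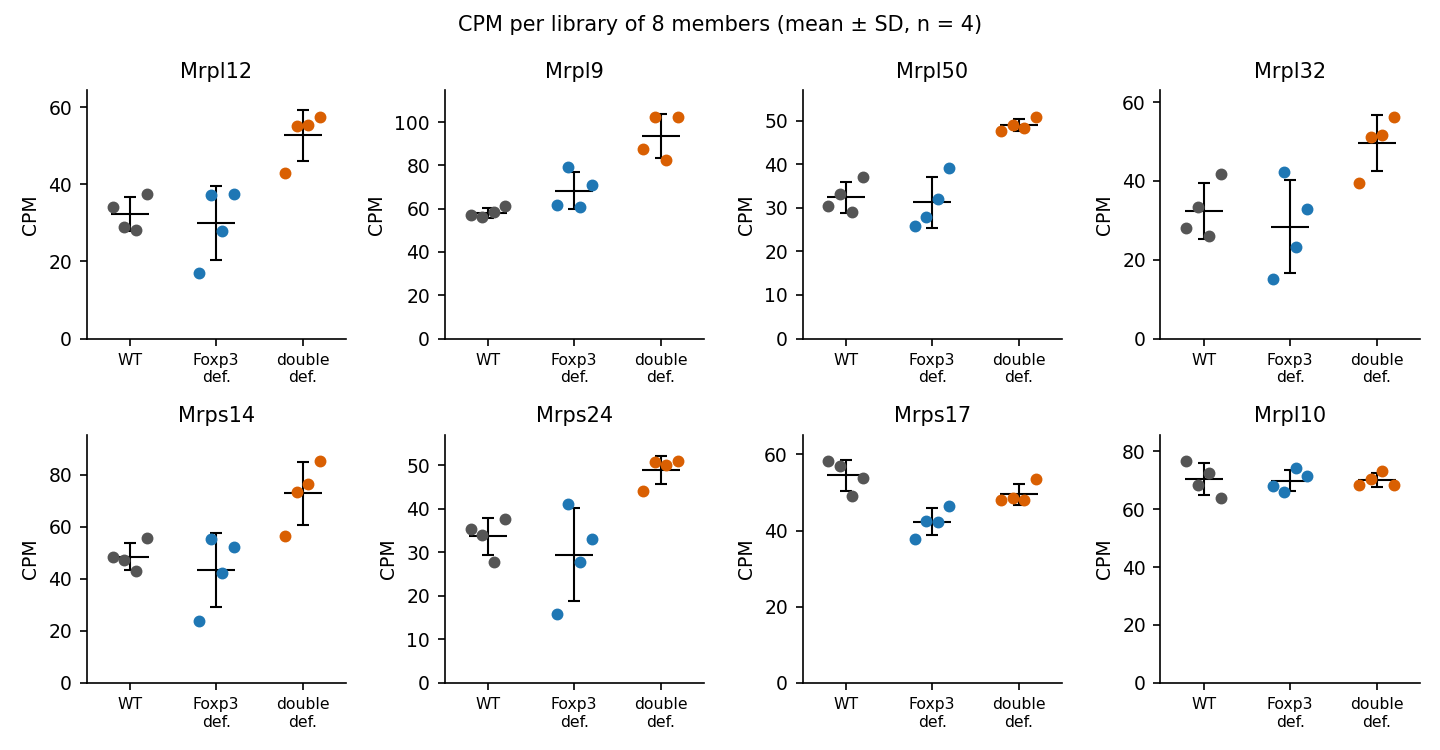
CPM per library (points) of 8 members, with the mean and SD of each group of 4 and the y axes starting at 0. Mrpl12, Mrpl9, Mrpl50, Mrps14 and Mrps24 have all double-deficient libraries above all others, Mrpl32 overlaps, Mrps17 is lower in Foxp3-deficient cells, and Mrpl10 is level.

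Other members were not called. Mrpl10, the highest by RPKM, gave 67.9, 66.1, 74.2 and 71.4 CPM in Foxp3-deficient libraries and 68.4, 70.4, 73.3 and 68.3 CPM in double-deficient ones. The ranges cover each other and the log2 fold change was 0.00 (SE 0.08). Mrpl37, Mrpl4, Mrps27 and Mrps2 also lay within 0.04 of 0. Mrps23, the highest small subunit gene by RPKM, had a log2 fold change of 0.15 (SE 0.12, adjusted p = 0.356). Mrpl23, at 0.347 to 1.79 CPM, had the lowest value at -0.76, with an SE of 0.45 and an adjusted p of 0.221.

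**Figure D4:**
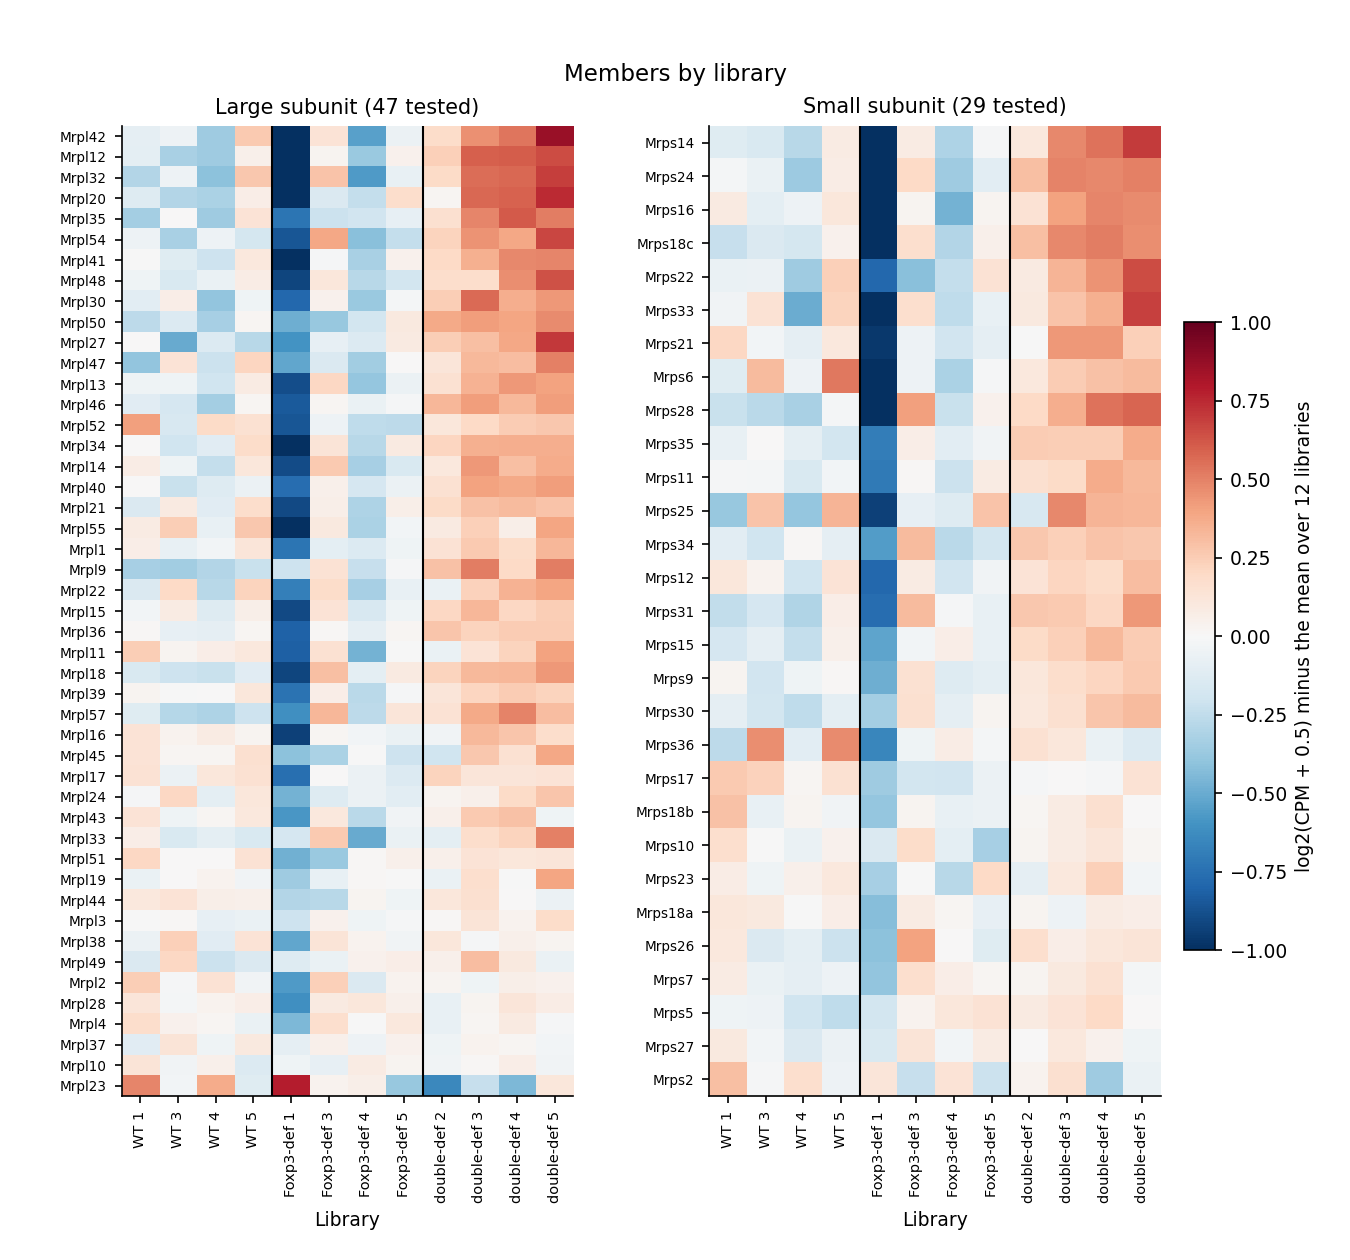
Colours show log2(CPM + 0.5) of each tested member in each library minus its mean over the 12 libraries, limited to the range from -1 to 1; rows are genes, ordered within each subunit by log2 fold change of double-deficient against Foxp3-deficient cells. The Foxp3-deficient 1 column is lowest for 67 of 76 genes. Near the bottom some genes differ little between libraries, such as Mrpl10 (63.7 to 76.6 CPM). Others are still low in Foxp3-deficient 1, such as Mrpl2 (19.6 CPM there, 26.4 to 34.9 in the other libraries).

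Double-deficient cells were also compared with WT cells, which measures the loss of both proteins together with any difference of reporter or strain. These values use the same double-deficient libraries, so they are given beside the others and not as separate evidence. Of 76 genes, 17 were higher and none was lower (22.4% and 0%, against 15.8% and 16.8% of all genes), with a median of 0.25. Proliferation genes were also higher than in WT, with 11 of 20 called, and their part in this result was not tested. At an unadjusted p under 0.05, 30 members were higher and 0 lower, and the share of all genes at that threshold was not counted. DESeq2 called 22 members higher (28.9%) and 0 lower, against 18% and 18.2% of all genes. The large subunit had 12 of 47 called (median 0.25) and the small subunit 5 of 29 (median 0.25). The count was 9, 9 and 5 without WT 1, 3 and 4 (11.8%, 11.8% and 6.58% of the members, against 11.6%, 11.7% and 11.1% of all genes). It was 9, 8 and 9 without double-deficient 3, 4 and 5 (11.8%, 10.5% and 11.8%, against 12.6%, 12.6% and 11.5%). In these 6 fits the members' share was thus near or below that of all genes. A fit of these groups alone called 36 (47.4% against 21.7%). Members called in all 8 fits that left out 1 library were Mrpl9, Mrpl12, Mrpl27, Mrpl35 and Mrpl50.

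Mrpl9 (chr3:94443318-94451130, plus strand), a large subunit protein with a bacterial counterpart, had the smallest adjusted p. It gave 56.9, 56.1, 58.3 and 61.4 CPM in WT, 61.9, 79.1, 61.0 and 71.0 in Foxp3-deficient libraries and 87.7, 102.4, 82.5 and 102.2 in double-deficient ones. The 3 groups followed each other, with WT and Foxp3-deficient libraries overlapping and double-deficient libraries above all others. Its log2 fold change was 0.69 against WT (SE 0.10, adjusted p = 0.000153) and 0.46 against Foxp3-deficient cells (SE 0.10, adjusted p = 0.0054). Mrpl12 had 0.71 against WT (SE 0.20, adjusted p = 0.012). Mrpl27, which lies near the peptidyl transferase centre, rose from 12.2, 8.43, 11.1 and 9.98 CPM in WT to 14.6, 15.2, 16.1 and 20.2 CPM, without overlap and with a log2 fold change of 0.66 (SE 0.17, adjusted p = 0.00971). Mrpl20, Mrps28, Mrpl54, Mrpl50 and Mrps14 followed, at 0.68, 0.66, 0.60, 0.59 and 0.59. The groups did not overlap for 34 members, all higher in double-deficient cells (44.7%, against 20.5% of all genes higher without overlap).

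In Foxp3-deficient against WT cells, which asks what the loss of Foxp3 alone changes, 1 of 76 genes was called, lower, and none higher (1.32% and 0%, against 6.74% and 6.99% of all genes). DESeq2 called 2 lower and 0 higher, against 8.15% and 8.75% of all genes. At an unadjusted p under 0.05 there were 7 lower and 1 higher, and the share of all genes was not counted. The called gene was Mrps17 (chr5:129715497-129722556, plus strand), a small subunit protein with a bacterial counterpart. Its WT libraries gave 58.2, 57.0, 49.2 and 53.7 CPM, its Foxp3-deficient libraries 37.8, 42.6, 42.3 and 46.5 and its double-deficient libraries 48, 48.4, 48 and 53.6. All Foxp3-deficient libraries were below all others. Of the members, 4 were lower without overlap (Mrpl16, Mrpl44, Mrpl45 and Mrps17) and 0 higher, against 9.26% and 8.52% of all genes. For Mrps17 the log2 fold change was -0.36 (SE 0.09, adjusted p = 0.0153), a call that was lost without WT 1. The median of the members was -0.15 and 64 of 76 were negative, but without Foxp3-deficient 1 the median was -0.008.

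The members are short genes, and levels in these libraries moved with length, so the changes were set against genes of the same length. The median member had 2255 bases of exon, 1288 bases in its principal transcript and 576 bases of coding sequence, compared with 4134.5, 2812 and 1353 bases for all tested genes with an annotated length. In double-deficient against Foxp3-deficient cells the rank correlation of the log2 fold change with coding length was -0.42 over the 76 members and -0.43 over 11491 other genes, as a description across genes that share the same libraries. In the shortest of 5 classes of coding length (12 to 720 bases) 23 of 48 members were called higher (47.9%), compared with 29.7% of the other 2279 genes, and the medians were 0.53 and 0.27. In the next class (720 to 1131 bases) 10 of 21 members were called (47.6%), compared with 20.1% of other genes. In the class of 1131 to 1599 bases 0 of 7 members were called higher, compared with 13.3% of other genes. The medians there were 0.13 and 0.004, and longer classes held no tested member. Measured against the level of other genes at its own coding length, the median member was 0.21 higher, and 57 of 76 were above that level. By principal transcript the difference was 0.24 with 60 above, and by the union of exons 0.31 with 64 above.

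When each library's own trend with length was removed before the test, fewer members were called in double-deficient against Foxp3-deficient cells. Removing the trend with exonic length left 24 higher (31.6% of the members, against 12.7% of all genes), that with principal transcript length 20 (26.3% against 12%), and that with coding length 14 (18.4% against 10.6%). Removing both exonic length and GC content left 15 (19.7% against 10.8%). With the coding length trend removed and Foxp3-deficient 1 left out, 4 were called (5.26%, below the 7.29% of all genes), and the median was 0.12. Uncalled members turned sign: 10, 16 and 17 of the 76 had the opposite sign with the exonic, principal transcript and coding length trend removed, and none of the 33 called did. Mrpl10 was then at -0.27, -0.15 and -0.17. Of the 33 members called, 9 were also called in all 4 length fits: Mrpl9, Mrpl12, Mrpl30, Mrpl35, Mrpl40, Mrpl42, Mrpl48, Mrps24 and Mrps35. Of these, 6 were also called without any single library, namely Mrpl9, Mrpl12, Mrpl30, Mrpl35, Mrpl40 and Mrps24.

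Against WT the same step was applied. With the coding length trend removed 11 members were higher, 14.5%, close to the 15.7% of all genes, and the median was 0.08. Of the 17 called members, 10 were called in all 4 length fits, and Mrpl9, Mrpl12, Mrpl27, Mrpl35 and Mrpl50 were also called without any single library. In Foxp3-deficient against WT cells Mrpl9 was called higher once a length trend was removed, with a log2 fold change of 0.29 (SE 0.09, adjusted p = 0.0312) for coding length, and Mrps17 was then not called (-0.21, adjusted p = 0.212), although it was with the other length trends removed. Double-deficient libraries also had more reads without a unique alignment (32.1% ± 0.854, compared with 27.0% ± 1.26 in WT and 26.9% ± 2.80 in Foxp3-deficient libraries) and fewer reads outside genes (5.0% ± 0.366, compared with 8.18% ± 0.507 and 7.83% ± 1.51). The part of these in the results was not tested.

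**Figure D5:**
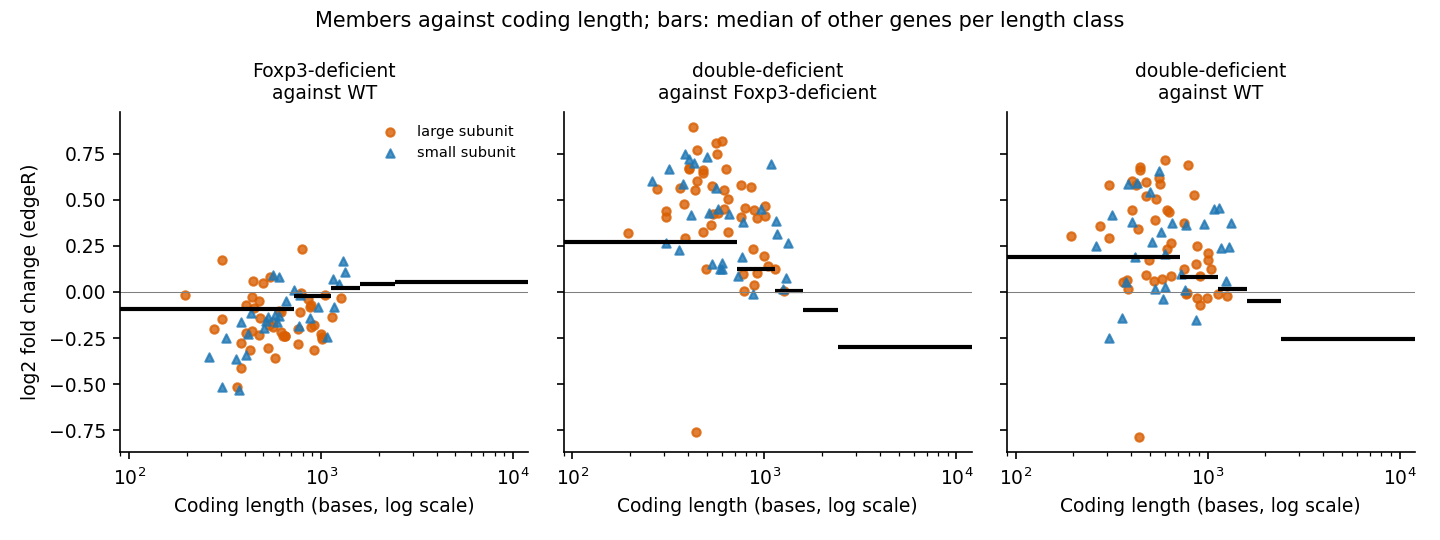
Log2 fold change (y axis) of each tested member against its coding length (x axis, log scale) in the 3 comparisons, large subunit as circles and small subunit as triangles; black bars give the median of all other genes in 5 length classes. In double-deficient against Foxp3-deficient cells the bars fall from 0.27 in the shortest to -0.30 in the longest class, and 57 of 76 members lie above the level of other genes at their length.

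Some members do not have the place that their name gives. Mrps18a, Mrps18b and Mrps18c descend from 1 bacterial protein, and Mrps18a sits in the large subunit. Mrps18c gave 4.28, 11.7, 8.37 and 10.7 CPM in Foxp3-deficient libraries and 12.9, 14.6, 14.9 and 14.5 CPM in double-deficient ones, without overlap, and rose by 0.70 (SE 0.23, adjusted p = 0.0324). Mrps18b had a log2 fold change of 0.19 (SE 0.15, adjusted p = 0.343) and Mrps18a of 0.12 (SE 0.11, adjusted p = 0.412). For Mrps18a the value turned to -0.27 (adjusted p = 0.0399) when the trend with principal transcript length was removed. Whether the 3 paralogs differ from each other was not tested. Mrps30, also a large subunit protein by structure, was higher than in WT by 0.38 (SE 0.11, adjusted p = 0.0144) and had 0.27 against Foxp3-deficient cells (adjusted p = 0.0725). Mrps36, which is an adaptor of the oxoglutarate dehydrogenase complex and no ribosomal subunit, was low, at 0.604 to 0.871 CPM in the group means. Mrpl57 rose against WT by 0.58 (SE 0.17, adjusted p = 0.0177). With the genes placed by structure, 24 of 49 large and 9 of 26 small subunit genes were higher when double-deficient cells were compared with Foxp3-deficient ones.

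Several members share exons with neighbours, and whether the counting used strand is not given in the sources used here. Reads of such pairs may thus be set aside as ambiguous or not be separated. Exons of Mrps25 overlap those of Nr2c2 over 69.8% of their length, those of Mrps34 overlap Mapk8ip3 over 63.4%, and both pairs lie on opposite strands. On the same strand, Mrps34 shares 763 bases of exon (37.0% of its length) with Nme3, and Mrps24 shares 226 bases (15.4%) with Urgcp. Mrpl46 and Mrps11 start head to head and share 173 bases of exon. Both were called higher in double-deficient against Foxp3-deficient cells, by 0.57 (SE 0.15, adjusted p = 0.0155) and 0.45 (SE 0.15, adjusted p = 0.0379).

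Other genes of mitochondrial translation were counted in the same way in double-deficient against Foxp3-deficient cells. There 13.9% of all tested genes were called higher and 13.3% lower, and by DESeq2 16.3% and 15%. These lists were not set against genes of the same length, and the share of all genes at an unadjusted p under 0.05 was not counted. Of 5 subunits without an Mrp name 4 were higher, among them Chchd1 (13.1 ± 4.52 to 26.9 ± 2.52 CPM, adjusted p = 0.004) and Gadd45gip1 (16.8 ± 4.54 to 25 ± 1.6 CPM, adjusted p = 0.0214), both small proteins of the mitoribosome. The peptidyl-tRNA hydrolase Ict1, a large subunit protein under another name, rose from 39.1 ± 8.28 to 52.3 ± 1.84 CPM (adjusted p = 0.0266). Of 31 assembly and RNA modification factors 7 rose and none fell (12 and 1 at an unadjusted p under 0.05; DESeq2 called 11 and 1), with a median of 0.23. Of 16 translation factors 1, the initiation factor Mtif3, rose (27.1 ± 2.18 to 35.4 ± 1.07 CPM, adjusted p = 0.0111) and 2 fell. Of 20 mitochondrial aminoacyl-tRNA synthetases none rose and 1 fell (3 and 1 at an unadjusted p under 0.05; DESeq2 called 2 and 1), with a median of -0.08.

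In genes of mitochondrial DNA transcription and maintenance 5 of 13 rose and 2 fell (38.5% and 15.4%, against 13.9% and 13.3% of all genes). Trmt10c, a subunit of mitochondrial RNase P, had the smallest adjusted p there (82.4 ± 15.5 to 126.2 ± 8.61 CPM, adjusted p = 0.00156). Of 9 tested genes encoded in mitochondrial DNA all had positive values (median 0.50) and 1, mt-Nd1, was called higher (0.74, SE 0.22, adjusted p = 0.0246), while DESeq2 called 4 higher and limma-voom 3. The ribosomal RNAs among them, with which the members' proteins assemble, were not called: mt-Rnr1 averaged 75.8 ± 28.7 and 93.4 ± 19.6 CPM (adjusted p = 0.48) and mt-Rnr2 756 ± 306.8 and 1025 ± 100.8 CPM (adjusted p = 0.285). Among 12 nuclear regulators 3 fell and none rose (6 and 1 at an unadjusted p under 0.05, and 4 and 0 by DESeq2): the cofactors Hcfc1 (-0.73), Ppargc1b (-0.69) and Gabpb2 (-0.63). That was 25% lower, against 13.3% of all tested genes. In the longest class of coding length, above 2427 bases, 37.2% of genes were called lower. In the shortest, 12 to 720 bases, 29.7% of genes other than the members were called higher. Which class each gene of these lists falls in was not compared. For comparison, 48 of 79 tested cytosolic ribosomal protein genes and 43 of 74 nuclear oxidative phosphorylation genes were higher, with medians of 0.65 and 0.52. Those were 60.8% and 58.1%, against 13.9% of all genes. The lists named here were also not set against genes of the same length, and the share of all genes at an unadjusted p was again not counted. Of 20 proliferation genes none was called in this comparison (edgeR, with 0 higher and 1 lower at an unadjusted p under 0.05, and 0 by DESeq2). Against WT 11 were higher in double-deficient cells (55%, against 15.8% of all genes, median 0.76). In Foxp3-deficient cells 10 were higher than in WT (50%, against 6.99% of all genes, median 0.95).

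Sequence before the start of transcription was searched for the core motifs of factors known for mitochondrial genes, on both strands: GCGCATGCG for NRF1, CCGGAAG for the ETS factor GABPA, AAGATGGCG for YY1 and the E-box CACGTG bound by MYC. RefSeq promoters (GRCm38.p6, 250 bases before to 50 after the start) matched 68 of the 77 members. The NRF1 motif was in 10.3% of these, compared with 4.4% of 8869 protein-coding genes that were tested and 2.0% of all 27025 genes with a promoter. For the GABPA motif the shares were 36.8%, 21.3% and 9.9%, for YY1 11.8%, 3.8% and 1.6%, and for the E-box 7.4%, 11.8% and 8.1%. Between the 29 members called higher in double-deficient against Foxp3-deficient cells and the 38 not called, the NRF1 shares were 10.3% and 10.5%, the GABPA shares 27.6% and 42.1%, those of YY1 17.2% and 7.9%, and those of the E-box 10.3% and 5.3%. These shares rest on 2 to 16 genes each and are descriptions. For each of 3 motifs, a member that was called higher and one that was not are shown by the 150 bases before their start, 5′ to 3′ on the gene's strand, with the motif in capitals. Mrpl9, Mrps22 and Mrpl20 were called higher, and Mrpl10, Mrps18a and Mrpl2 carry the same motif and were not called.
Mrpl9, NRF1 motif, plus strand of chr3:94443186-94443335: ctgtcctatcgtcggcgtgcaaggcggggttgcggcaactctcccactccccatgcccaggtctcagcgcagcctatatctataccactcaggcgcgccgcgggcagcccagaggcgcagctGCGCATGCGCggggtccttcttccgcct
Mrpl10, NRF1 motif, plus strand of chr11:97041432-97041581: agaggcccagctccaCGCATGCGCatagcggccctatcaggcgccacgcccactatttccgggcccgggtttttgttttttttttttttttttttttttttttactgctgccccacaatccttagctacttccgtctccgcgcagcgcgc
Mrps22, GABPA motif, minus strand of chr9:98601680-98601829: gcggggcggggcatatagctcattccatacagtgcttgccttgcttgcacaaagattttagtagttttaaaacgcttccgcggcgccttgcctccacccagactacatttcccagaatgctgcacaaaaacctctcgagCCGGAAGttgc
Mrps18a, GABPA motif, plus strand of chr17:46110854-46111003: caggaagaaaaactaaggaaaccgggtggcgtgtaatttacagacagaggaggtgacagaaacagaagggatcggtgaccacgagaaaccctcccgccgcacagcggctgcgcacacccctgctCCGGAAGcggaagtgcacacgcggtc
Mrpl20, E-box, plus strand of chr4:155802728-155802877: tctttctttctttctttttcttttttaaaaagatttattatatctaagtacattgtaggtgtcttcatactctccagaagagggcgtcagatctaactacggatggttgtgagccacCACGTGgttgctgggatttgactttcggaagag
Mrpl2, E-box, plus strand of chr17:46646071-46646220: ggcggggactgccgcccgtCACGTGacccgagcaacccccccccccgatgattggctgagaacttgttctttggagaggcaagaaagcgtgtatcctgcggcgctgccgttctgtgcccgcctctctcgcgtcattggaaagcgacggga
In Mrpl9 the capitals hold the NRF1 motif on both strands, 1 base apart. The log2 fold changes of double-deficient against Foxp3-deficient cells were 0.46 for Mrpl9 and 0.00 for Mrpl10, 0.69 for Mrps22 and 0.12 for Mrps18a, and 0.77 for Mrpl20 and 0.10 for Mrpl2. A match is a run of letters and not a measured site, since no binding was measured here. Of the factors themselves, Nrf1 (-0.10, adjusted p = 0.331), Gabpa (-0.09, adjusted p = 0.464), Yy1 (0.20, adjusted p = 0.256) and Myc (0.32, adjusted p = 0.0844) were not called in that comparison.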

How the data were processed

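RNA-seq counts of 12 libraries were used, 4 per genotype as the labels give it. The authors deposited raw counts, whole numbers of reads for every gene in each library, not normalized. The labels' protocols name the SMART-Seq v4 kit for cDNA synthesis, and the submitters' processing notes name GRCm38 (mm10), STAR 2.5.1b and HTSeq. For HTSeq, the strand setting and annotation release were not given in the sources used here. Summary rows for reads outside genes, ambiguous reads and reads not uniquely aligned stayed out of library sizes and tests; 59.5% to 65.3% of each library's counted reads fell in genes. Lengths, GC content and positions came from GENCODE M21 on GRCm38, in which 97.5% of the genes were found (24116 by symbol, 447 by synonym), and promoters from RefSeq on GRCm38.p6.

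After filterByExpr 13196 genes remained. Libraries were scaled by TMM, and 1 robust quasi-likelihood model without covariates covered all 12 of them (edgeR 4.0.16, R 4.3.3). A gene was called at a Benjamini-Hochberg adjusted p under 0.05 over all tested genes. CPM used TMM-scaled library sizes and RPKM the union of exons. Log2 CPM used a prior count of 2. The biological coefficient of variation was 17.4%, and no library was a copy of another. Length trends were estimated per library by lowess (span 0.3) and removed as offsets. The main edgeR fit was tested on simulated counts with known folds, for double-deficient against Foxp3-deficient cells. The length and GC offsets, replicate blocks, other tools and promoter search were not tested in that way.

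The members, lists, tests and length measures were chosen with earlier results of these data known, and the lists of cytosolic ribosomal and oxidative phosphorylation genes are by symbol pattern. Named were up to 8 called members per comparison with the largest fold change in each direction, the 3 highest per length in each subunit, Mrpl12, Mrpl57, Ict1, Mrps18a, Mrps18b, Mrps18c, Mrps30, Mrps36, untested members, and up to 3 called genes per list. Further members (such as Mrpl2, Mrpl23, Mrpl28, Mrps7, Mrpl46, Mrps11 and Mrps22, the members within 0.04 of 0 and those that kept their calls) and regulators were named after their values were seen. Alternatives were other scalings, filters, DESeq2 1.42.0, limma-voom (limma 3.58.1), fits of the groups compared, replicate blocks, length and GC offsets, and leaving out each library.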

Additional observations from a re-analysis of the deposited data

Results flagged for a closer look

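Single libraries stood far from the other 3 of their group for 4 of 90 combinations looked at, by Dixon's test at the 95% level. Each combination was a group with either a named member or a measure over all members, such as their summed CPM. All flags fell on named members, and chance flags about 1 group in 20. Mrpl36 was at 21 CPM in Foxp3-deficient 1, below 35.0 to 37.8 CPM in the rest of its group. Mrpl12 was at 43.0 CPM and Mrps24 at 44.1 CPM in double-deficient 2, below the rest of that group. Mrps17 was at 53.6 CPM in double-deficient 5, above 48 to 48.4 CPM in the others.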

How the results depend on the processing

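Scaling by relative log expression or upper quartile, a stricter filter, no filter and limma-voom kept the direction of all 3 medians and the counts within 1.5 times. The calls depended on the libraries fitted and on length. Members called higher in double-deficient against Foxp3-deficient cells (33 as reported) numbered 17 with only these groups fitted, 15 with exonic length and GC trends removed, 20 (and 2 lower, Mrpl4 and Mrps18a) with the principal transcript trend removed, 14 with the coding length trend removed, 4 (median 0.12) with that trend removed and Foxp3-deficient 1 left out, and 10 to 50 without single libraries. Members higher than in WT (17 as reported) numbered 36 with only these groups fitted, 11 (and 1 lower, Mrps17; median 0.0817) with the coding length trend removed, and 5 to 15 without single libraries; with the principal transcript trend removed 2 were lower and the median was 0.16. In Foxp3-deficient against WT cells DESeq2 called 2 lower, each length trend removed gave 1 higher, the coding length trend removed or Foxp3-deficient 1 and 3 both left out gave 0 lower, and leaving out single libraries gave 0 to 2 lower. Among the genes followed through every setting, values that changed sign and passed the test in at least 1 of the fits compared were those of Mrpl36, double-deficient against Foxp3-deficient (-0.0504 with block, length and GC, adjusted p = 0.83; -0.0219 with the coding length trend removed and Foxp3-deficient 1 left out) and Mrps18a (-0.27, adjusted p = 0.0399, principal transcript). The offsets by principal transcript and coding length, their combination with a left-out library, the block over all 12 libraries and the unblocked fit of the same libraries were chosen after seeing the data. The cause of these differences was not tested.

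What the replicate numbers stand for is not known, and pairing by number was not established. Same-numbered libraries of WT and Foxp3-deficient cells correlated at 0.16, 0.10, 0.03 and 0.20 in their deviations from the group means, and WT 1, 3 and 5 correlated best with their own number among the Foxp3-deficient libraries while WT 4 did not. Those of the other group pairs correlated at -0.05 to 0.06. In Foxp3-deficient against WT cells the block called 1 lower, as without it. With the replicate number as a block, over the libraries that share numbers, 11 members were higher than in Foxp3-deficient cells (14.5%, against 5.58% of all genes; 15 in the same libraries without the block) and 35 higher than in WT (46.1% against 19.7%; 36 without it). The block with exonic length and GC trends removed gave 1 (1.32% of the members, below the 2.15% of all genes called higher) and 28 (36.8% against 17.9%). It also gave 2 lower in Foxp3-deficient than in WT cells, where 8.18% of all genes were called lower. The block over all 12 libraries gave 2 lower in Foxp3-deficient than in WT cells, where 6.96% of all genes were called lower. In double-deficient cells it gave 22 higher than in Foxp3-deficient cells (28.9%, against 11.2% of all genes). Against WT it gave 11 higher there, 14.5%, near the 12.9% of all genes. At 52 reads in all, Mrpl53 was not compared. Its exons overlap those of Gm42688 over 88.0% of their length on the same strand, and the part of that overlap in its low count was not tested.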
